A study of Homo sapiens with 8 samples.

Results

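The 10 NF-kB genes described here, all parts of one signalling system, were measured in UWB1.289 ovarian cancer cells that differ in BRCA1 state and in resistance to PARP inhibitors. They were taken by gene symbol from the deposited table, and all 10 of the 10 symbols were found among its 32803 rows. They comprise the 5 subunit genes NFKB1, NFKB2, REL, RELA and RELB, the inhibitor and feedback genes NFKBIA and TNFAIP3, and the target genes TNFAIP2, TRAF1 and BIRC3. Total RNA was sequenced from 4 groups of 2 libraries each (n = 2 throughout): the resistant derivative Olres-UWB1.289+BRCA1 at passage 45 (resistant proficient), UWB1.289+BRCA1 at passage 10 (parental proficient), the resistant derivative Olres-UWB1.289 at passage 56 (resistant deficient) and UWB1.289 at passage 29 (parental deficient). UWB1.289 is a human ovarian cancer cell line without functional BRCA1, a DNA repair gene, and UWB1.289+BRCA1 is the same line with BRCA1 restored. PARP inhibitors block poly(ADP-ribose) polymerases, which repair DNA. All 4 cultures were grown without drug, so no group was sampled under drug exposure. Each background has a single resistant line, and resistant cells were also at the higher passage, so that resistance, passage and line cannot be told apart.

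NF-kB factors are dimers of subunits that share a DNA-binding domain. In resting cells inhibitor proteins hold the dimers in the cytoplasm, and cytokine or pattern recognition receptors release them through kinases that mark the inhibitor for destruction. The dimers then switch on inflammatory and survival genes together with genes for their own inhibitors, which closes a negative feedback loop. In carcinoma cells the pathway is known for cytokine production and for survival under stress.

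The upstream regions of 4 of the genes are shown because NFKB1 and NFKBIA fell in both resistant lines while TNFAIP3 and BIRC3 went opposite ways in proficient cells. TNFAIP2 also fell in both resistant lines and is not shown. RefSeq windows on GRCh38.p14, from 250 bases before to 50 bases after a gene start, were matched for 9 of the 10 genes in 15 windows; RELB had none. NFKB1 has 2 windows, of which the one with a match is shown. Only the 250 bases before the start are printed, 5′ to 3′ on the strand of the gene, and capitals mark every match to the NF-kB consensus (the kB consensus, 10 bases, both strands searched, overlapping matches merged). The regions are chr4:102501109-102501358 on the plus strand for NFKB1, chr14:35404750-35404999 on the minus strand for NFKBIA, chr6:137867009-137867258 on the plus strand for TNFAIP3 and chr11:102317234-102317483 on the plus strand for BIRC3.
NFKB1: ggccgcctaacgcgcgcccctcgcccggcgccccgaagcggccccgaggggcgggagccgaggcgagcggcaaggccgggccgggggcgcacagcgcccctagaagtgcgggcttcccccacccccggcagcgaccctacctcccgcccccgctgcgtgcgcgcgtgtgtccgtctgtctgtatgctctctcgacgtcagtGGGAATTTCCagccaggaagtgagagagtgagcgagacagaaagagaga
NFKBIA: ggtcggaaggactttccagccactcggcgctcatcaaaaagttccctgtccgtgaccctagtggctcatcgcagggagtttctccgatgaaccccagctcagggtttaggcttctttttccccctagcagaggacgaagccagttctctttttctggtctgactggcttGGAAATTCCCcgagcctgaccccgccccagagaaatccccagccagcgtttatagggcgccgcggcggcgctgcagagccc
TNFAIP3: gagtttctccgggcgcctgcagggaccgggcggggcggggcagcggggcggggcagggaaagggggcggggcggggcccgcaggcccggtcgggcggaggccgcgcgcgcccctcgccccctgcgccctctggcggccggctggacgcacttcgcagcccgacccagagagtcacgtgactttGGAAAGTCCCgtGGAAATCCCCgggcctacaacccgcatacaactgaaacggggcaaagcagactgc
BIRC3: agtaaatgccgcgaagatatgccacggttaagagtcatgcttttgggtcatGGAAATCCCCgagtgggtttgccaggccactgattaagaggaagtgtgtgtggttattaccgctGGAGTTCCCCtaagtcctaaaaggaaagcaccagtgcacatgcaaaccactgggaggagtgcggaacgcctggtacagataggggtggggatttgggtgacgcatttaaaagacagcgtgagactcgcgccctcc
At least 1 match was found for 6 of the 9 genes, in 7 of the 15 windows (46.7%), against 5.91% of all 35116 windows of 300 bases. The genes with a match to the consensus were NFKB1, NFKB2, REL, NFKBIA, TNFAIP3 and BIRC3. RELA, TNFAIP2 and TRAF1 had no match, while all 4 printed regions hold at least 1, so the regions shown do not stand for all the genes. A match describes the letters of the window and does not show that a factor binds there.

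The libraries held 24094821 to 34394107 counts. BRCA1 itself stood at 2271 ± 134 CPM (counts scaled to the TMM-adjusted library total; mean ± SD) in resistant proficient cells, at 202 ± 14.4 CPM in parental proficient cells, at 34.7 ± 0.0847 CPM in resistant deficient cells and at 35.6 ± 0.647 CPM in parental deficient cells. Of the epithelial and Mullerian marker genes, KRT8, KRT18 and EPCAM were at 558 CPM or more and PAX8 at 199 CPM or more in every library, while WT1 lay between 0 and 9.16 CPM. The 5 epithelial markers summed to 2993 to 3307 CPM in resistant proficient, 2852 to 3114 in parental proficient, 3386 to 3972 in resistant deficient and 6014 to 6195 in parental deficient libraries. In the same order the 5 Mullerian markers summed to 1068 to 1186, 327 to 340, 541 to 634 and 475 to 505 CPM, with MUC16 alone at a mean of 821, 84.3, 246 and 215 CPM. CDH1 averaged 175, 88.1, 50.7 and 55.6 CPM. Among the 5 leukocyte markers, CD3E, CD79A and LYZ stayed at or below 0.115 CPM, and the summed level of the list was 27.6 to 27.7 CPM in resistant proficient, 15.1 to 15.5 in parental proficient, 4.68 to 5.52 in resistant deficient and 9.18 to 9.97 in parental deficient libraries. CD14 made up 21.3 CPM of the sum in resistant proficient cells, against 2.47 CPM in parental proficient cells. In deficient cells CD14 averaged 0.898 CPM in resistant and 0.472 CPM in parental libraries. PTPRC, the pan-leukocyte marker, averaged 6.24 CPM in resistant and 12.8 CPM in parental proficient cells. In deficient cells PTPRC averaged 4.07 CPM in resistant and 8.995 CPM in parental libraries. The mean of PTPRC was thus lower in both resistant lines, as were NFKB1 and NFKBIA, while that of CD14 was higher in both. The part of these markers in the results was not tested. In the same order of groups the 4 endothelial markers summed to 7.98 to 8.70, 3.73 to 5.16, 46.9 to 49.9 and 43.5 to 45.6 CPM, mostly CDH5 in deficient cells, and the 5 fibroblast markers to 2.04 to 2.32, 1.01 to 1.31, 3.62 to 8.68 and 1.64 to 1.88 CPM. Libraries also differed in how GC-rich genes read. For genes with more than 56.1% GC, the median departure from the 8-library average (log2) was -0.304 and -0.592 in resistant proficient libraries, -0.591 and -0.434 in parental proficient libraries, 1.02 and 0.649 in resistant deficient libraries, and 0.230 and 0.0875 in parental deficient libraries. For the 10 genes, values with this GC trend removed are therefore given where they change a call or turn a direction.

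All 10 genes passed the filter on low counts and were tested. In BRCA1-proficient cells, resistance went with lower NFKB1, NFKB2, RELB, NFKBIA, TNFAIP2 and BIRC3 and with higher REL and TNFAIP3. In BRCA1-deficient cells NFKB1, NFKBIA, TNFAIP3, TNFAIP2 and TRAF1 were lower and RELA was higher in the resistant line. A gene was called at an edgeR adjusted p under 0.05. Thus 6 of the 10 genes fell and 2 rose in proficient cells, where 27.8% of all 16221 genes tested fell and 25.9% rose, and 5 fell and 1 rose in deficient cells, where 27.0% fell and 28.9% rose. The count of 6 called genes in deficient cells, which was 3 without parental deficient replicate 2 (3 fell and 0 rose), lies near the 55.8% called among all genes. For proficient cells that share was 53.7%. The median log2 fold change of the 10 genes was -0.61 in proficient and -0.25 in deficient cells, beside -0.0017 and 0.026 over all genes tested. The libraries of resistant and parental cells did not overlap for 9 of the 10 genes in proficient cells, 2 of them higher and 7 lower in resistant cells, where 76.4% of all genes did not overlap (37.8% higher, 38.6% lower). In deficient cells they did not overlap for 10 of 10, 2 higher and 8 lower, where 78.7% of all genes did not overlap (40.8% higher, 37.8% lower). With the GC trend removed, 9 of the 10 genes were called in proficient cells (63.5% of all genes) and 9 in deficient cells (59.9% of all genes). In each background 7 of them were then lower and 2 higher in resistant cells. Among all genes called then, 46.5% were higher in proficient and 53.3% in deficient cells. The medians above are without this removal, so their contrast between backgrounds holds only with the GC trend left in. In bulk RNA, fewer cells that express a gene and less RNA per cell cannot be told apart.

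**Figure D1:**
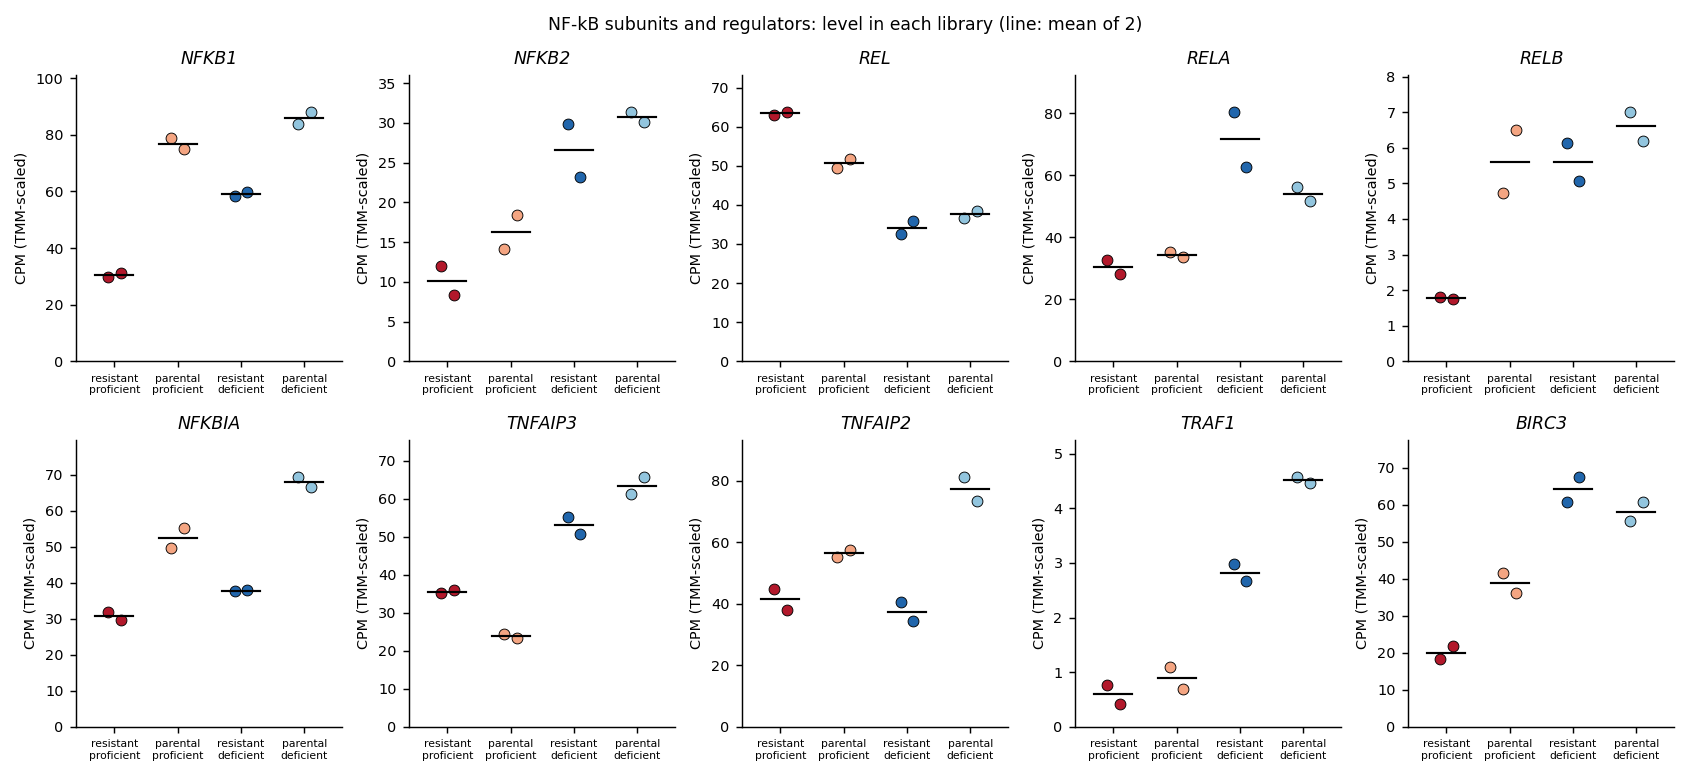
Level of each of the 10 genes in CPM (y axis, from 0) in the 8 libraries, by group (x axis); points are libraries and lines are means of 2 libraries. RELB and NFKB1 stand lowest in resistant proficient cells, NFKBIA is lower in both resistant lines than in their parental lines, and TNFAIP3 is lower in resistant than in parental deficient cells but higher in resistant than in parental proficient cells.

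Per kilobase of exon (union of GENCODE v29 exons), NFKBIA had the highest level of the 10 genes in every group, at 12.9 ± 0.673 CPM per kilobase in resistant proficient, 22.1 ± 1.65 in parental proficient, 15.9 ± 0.117 in resistant deficient and 28.6 ± 0.829 in parental deficient cells. TRAF1 had the lowest, at 0.0915 ± 0.0381, 0.138 ± 0.0435, 0.438 ± 0.0359 and 0.702 ± 0.0107 CPM per kilobase in the same order of groups. These lengths assume that all annotated exons are used, which the counts do not show.

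Among the subunits, NFKB1 encodes the precursor of the short subunit of the classical dimer. It had 29.7 and 31.1 CPM in resistant proficient libraries, against 78.8 and 75.0 CPM in parental proficient libraries. In deficient cells it had 58.3 and 59.9 CPM in resistant libraries, against 83.9 and 88.1 CPM in parental libraries. Its 4 groups followed each other without overlap, from parental deficient at the top through parental proficient and resistant deficient to resistant proficient. NFKB1 thus fell in both resistant lines, by a log2 fold change of -1.34 ± 0.08 in proficient cells (SE, edgeR adjusted p = 1.21e-07) and -0.54 ± 0.07 in deficient cells (edgeR adjusted p = 0.000106). The fall was deeper in proficient cells, with a difference between the resistance effects (proficient minus deficient) of -0.80 ± 0.10 (edgeR adjusted p = 0.000114), and each of these 3 calls held under every alternative run.

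RELB encodes a subunit that pairs with the product of NFKB2 in the alternative pathway. It had 1.80 and 1.75 CPM in resistant proficient libraries, against 4.72 and 6.50 CPM in parental proficient libraries. Deficient cells had 6.12 and 5.06 CPM in resistant and 7.01 and 6.20 CPM in parental libraries. Parental deficient, parental proficient and resistant deficient levels overlapped in turn, and the resistant proficient libraries lay below all others. The log2 fold change was -1.66 ± 0.23 in proficient cells (edgeR adjusted p = 0.000110) and -0.24 ± 0.20 in deficient cells (edgeR adjusted p = 0.338). At 65.4% GC, RELB has the highest GC content of the 10 genes. After removal of the GC trend it still gave -1.67 in proficient cells but -1.36 in deficient cells, a call there (adjusted p from 8.88e-07 to 0.668 over the alternatives). The difference between the resistance effects, -1.42 ± 0.31 (edgeR adjusted p = 0.00324), then shrank to -0.31 and was no longer called (0.000131 to 0.405 over the alternatives).

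NFKB2, the precursor gene of the alternative pathway, had 12.0 and 8.28 CPM in resistant proficient libraries, against 14.2 and 18.4 CPM in parental proficient libraries. Among deficient cells the levels were 29.9 and 23.3 CPM in resistant and 31.4 and 30.2 CPM in parental libraries. Deficient libraries lay above proficient ones, and each resistant group lay below its parental group without overlap. Its fold change was -0.68 ± 0.19 in proficient cells (edgeR adjusted p = 0.0123). That call was lost without resistant proficient replicate 2 (-0.40) and without parental proficient replicate 2 (-0.48), with adjusted p from 8.39e-06 to 0.134 over the alternatives. In deficient cells the value was -0.21 ± 0.18 (edgeR adjusted p = 0.338). Removal of the GC trend turned it into a fall of -1.05 there (6.98e-09 to 0.762 over the alternatives), the transcript having 62.4% GC. The resistance effects of proficient and deficient cells did not differ past the threshold (-0.46 ± 0.27, edgeR adjusted p = 0.177), and the direction of this difference turned with the GC trend removed (0.31, not called; 0.0615 to 0.664 over the alternatives).

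RELA encodes the main transactivating subunit. It had 32.6 and 28.0 CPM in resistant proficient libraries, against 35.1 and 33.7 CPM in parental proficient libraries. Deficient cells read higher, with 80.4 and 62.7 CPM in resistant and 56.1 and 51.6 CPM in parental libraries. RELA was raised in the resistant deficient line (0.41 ± 0.12, edgeR adjusted p = 0.0129), a call that was lost without resistant deficient replicate 1 (0.19), without parental deficient replicate 2 (0.32) and with the GC trend removed (0.02), with adjusted p from 0.000383 to 0.850 over the alternatives. In proficient cells it gave -0.18 ± 0.12 (edgeR adjusted p = 0.250), and -0.30 with the GC trend removed, a call there (0.00101 to 0.850 over the alternatives). The difference between the effects, -0.59 ± 0.17 (edgeR adjusted p = 0.0163), was lost when any of 4 libraries was left out. Those were resistant proficient replicate 2 (-0.42), parental proficient replicate 1 (-0.50), resistant deficient replicate 1 (-0.33) and parental deficient replicate 2 (-0.46), with adjusted p from 0.000970 to 0.103 over the alternatives.

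REL, which encodes the c-Rel subunit best known from lymphocytes, went the other way in proficient cells. It had 63.0 and 63.8 CPM in resistant proficient libraries, against 49.5 and 51.7 CPM in parental proficient libraries. Its deficient levels were 32.6 and 35.8 CPM in resistant and 36.7 and 38.4 CPM in parental libraries. Proficient libraries lay above deficient ones, with no overlap between neighbouring groups. REL rose in resistant proficient cells (0.32 ± 0.08, edgeR adjusted p = 0.00641). Its value among deficient cells was -0.13 ± 0.08 (edgeR adjusted p = 0.197), which turned to a rise of 0.16 with the GC trend removed (0.0485 to 0.465 over the alternatives). The difference between the effects was 0.46 ± 0.12 (edgeR adjusted p = 0.00837), or 0.20 and no longer called with the GC trend removed (0.00158 to 0.0871 over the alternatives). In GENCODE v29 an overlapping non-coding gene shares 43.3% of the exonic bases of REL, so part of its counts could belong to that gene.

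**Figure D2:**
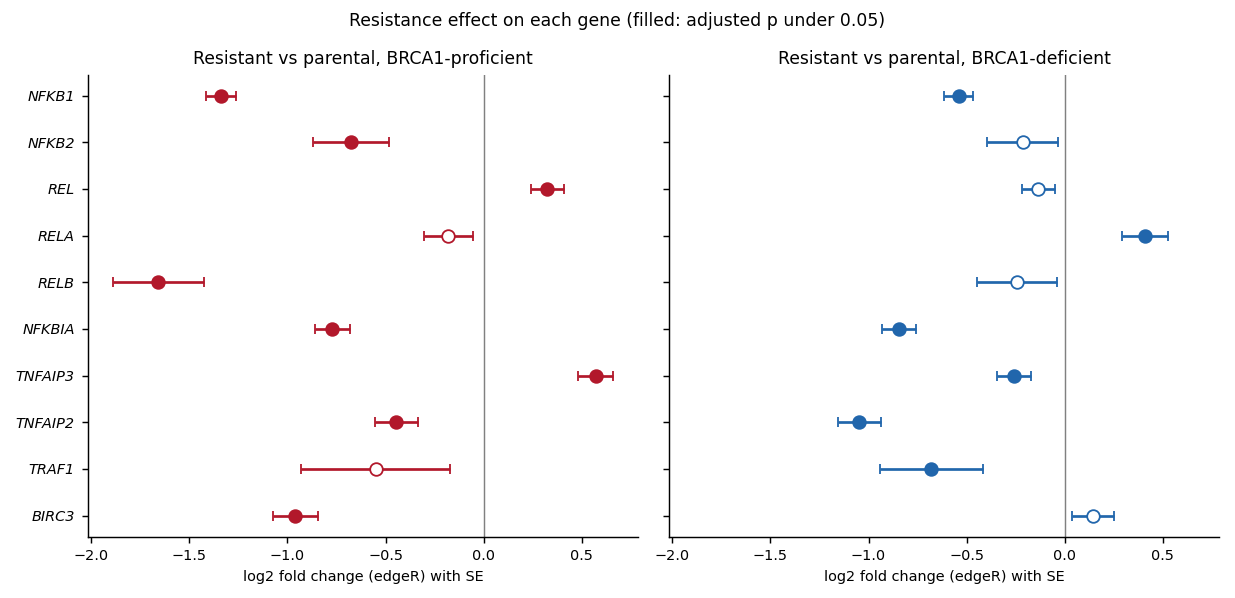
Log2 fold change of resistant over parental cells (x axis) for each of the 10 genes (y axis), in BRCA1-proficient cells on the left and BRCA1-deficient cells on the right; bars are SE and filled points passed an edgeR adjusted p of 0.05. NFKB1, NFKBIA and TNFAIP2 lie left of 0 and filled on both sides, while BIRC3 lies at -0.96 in proficient and 0.14 in deficient cells.

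Of the feedback genes, NFKBIA encodes the inhibitor that retains the classical dimers in the cytoplasm and is itself a target of NF-kB. It had 31.8 and 29.6 CPM in resistant proficient libraries, against 49.6 and 55.1 CPM in parental proficient libraries. In the deficient pair the gene had 37.6 and 37.9 CPM in resistant libraries, against 69.3 and 66.5 CPM in parental libraries. Both parental groups lay above both resistant groups, with no overlap. NFKBIA fell in both, with -0.77 ± 0.09 in proficient cells (edgeR adjusted p = 2.33e-05) and -0.85 ± 0.09 in deficient cells (edgeR adjusted p = 1.48e-05), and both calls held under every alternative run. The difference between these effects was 0.08 ± 0.12 (edgeR adjusted p = 0.645), which does not show that they are equal.

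TNFAIP3 encodes a ubiquitin-editing enzyme that shuts off signalling from cytokine receptors to NF-kB. It had 35.1 and 36.0 CPM in resistant proficient libraries, against 24.5 and 23.4 CPM in parental proficient libraries. Deficient libraries held 55.3 and 50.8 CPM in resistant and 61.2 and 65.7 CPM in parental libraries. Neighbouring groups did not overlap, and both deficient groups lay above both proficient groups. TNFAIP3 rose in resistant proficient cells (0.57 ± 0.09, edgeR adjusted p = 0.000248), a call that held under every alternative run. It fell in resistant deficient cells (-0.26 ± 0.08, edgeR adjusted p = 0.0224). The call in deficient cells was lost with DESeq2 (-0.25), without resistant deficient replicate 2 (-0.23) and without parental deficient replicate 2 (-0.24), with adjusted p from 0.0115 to 0.120 over the alternatives. The difference between the effects was 0.83 ± 0.12 (edgeR adjusted p = 0.000266) and held under every alternative run.

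Among the target genes, BIRC3 encodes an inhibitor of apoptosis that acts as a ubiquitin ligase in receptor complexes. It had 18.2 and 21.7 CPM in resistant proficient libraries, against 41.5 and 36.0 CPM in parental proficient libraries. In deficient cells it had 60.8 and 67.4 CPM in resistant and 55.6 and 60.6 CPM in parental libraries. Resistant proficient libraries were thus the lowest and resistant deficient libraries the highest, with no overlap between neighbouring groups. BIRC3 fell in the proficient line (-0.96 ± 0.12, edgeR adjusted p = 3.68e-05). Its value among deficient cells was 0.14 ± 0.11 (edgeR adjusted p = 0.287). With the GC trend removed, its value in deficient cells was 0.54 and a call (5.10e-07 to 0.832 over the alternatives), the transcript having 34.8% GC, the lowest of the 10. The difference between the effects, -1.10 ± 0.16 (edgeR adjusted p = 0.000216), held under every alternative run.

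TNFAIP2, a gene induced by tumour necrosis factor whose product shapes membrane protrusions, had 44.8 and 38.0 CPM in resistant proficient libraries, against 55.4 and 57.5 CPM in parental proficient libraries. Deficient cells held 40.6 and 34.3 CPM in resistant libraries, against 81.2 and 73.4 CPM in parental libraries. The resistant groups overlapped each other and lay below both parental groups. TNFAIP2 fell in the proficient line (-0.44 ± 0.11, edgeR adjusted p = 0.00483) and the deficient line (-1.05 ± 0.11, edgeR adjusted p = 1.64e-05). The call in proficient cells was lost without resistant proficient replicate 2 (-0.29; 3.62e-06 to 0.0703 over the alternatives), and the value in deficient cells moved to -1.84 with the GC trend removed, at 62.0% GC. The difference between the effects was 0.60 ± 0.15 (edgeR adjusted p = 0.00758), or 1.33 with the GC trend removed.

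TRAF1, an adaptor of the tumour necrosis factor receptor family that binds BIRC3, was the least abundant. It had 22 and 10 counts in resistant proficient libraries, against 27 and 20 counts in parental proficient libraries. Among deficient libraries there were 83 and 92 counts in resistant libraries, against 139 and 156 counts in parental libraries. The proficient groups overlapped in CPM and lay below the deficient groups. Its log2 fold change was -0.55 ± 0.38 in proficient cells (edgeR adjusted p = 0.246) and -0.68 ± 0.26 in deficient cells (edgeR adjusted p = 0.0457). The call in deficient cells was lost with RLE factors (-0.67), with DESeq2 (-0.67) and without resistant deficient replicate 1 (-0.79) or 2 (-0.63) or parental deficient replicate 1 (-0.67) or 2 (-0.73), with adjusted p from 0.00357 to 0.197 over the alternatives. The effects did not differ past the threshold between proficient and deficient cells (0.13 ± 0.47, edgeR adjusted p = 0.843), and the sign of this difference turned without resistant proficient replicate 1 (-0.31) or parental proficient replicate 2 (-0.17), with adjusted p from 0.399 to 0.916 over the alternatives.

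**Figure D3:**
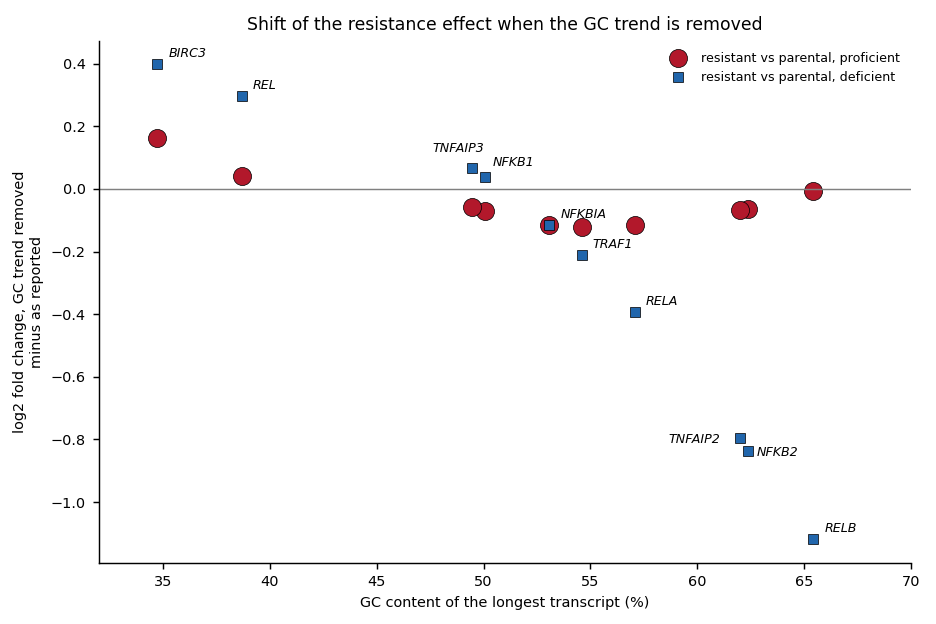
Change in the log2 fold change of resistant over parental cells when the GC trend is removed (y axis) against the GC content of the longest transcript in percent (x axis) for each of the 10 genes; circles are BRCA1-proficient and squares BRCA1-deficient cells, and labels stand beside the squares. Shifts in deficient cells run from 0.40 for BIRC3 to -1.12 for RELB, and those in proficient cells from 0.16 to -0.12.

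In the difference between the resistance effects (proficient minus deficient), 3 of the 10 genes were positive and 4 negative past the threshold. Among all genes 46.7% were called (21.4% positive and 25.3% negative). The 3 positive were REL, TNFAIP3 and TNFAIP2, and the 4 negative were NFKB1, RELA, RELB and BIRC3. The sign gives no level: TNFAIP2 fell in both resistant lines, but less in proficient (-0.44) than in deficient cells (-1.05). Removal of the GC trend left 5 of the 10 called, beside 56.1% of all genes.

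BRCA1 state was compared next, within parental and within resistant cells. These comparisons share libraries with the resistance comparisons. Proficient cells were at the lower passage in both (10 against 29 in parental and 45 against 56 in resistant cells). Each state was a single line within parental and within resistant cells, so that BRCA1 state, passage and line cannot be told apart. BRCA1 itself also differed between the proficient groups, at 2271 CPM in resistant and 202 CPM in parental cells. In parental cells 7 genes were lower and 1 was higher in proficient than in deficient cells, where 30.1% of all genes were lower and 32.3% higher (62.4% called). Libraries did not overlap for 9 genes there, 8 lower and 1 higher (83.0% of all genes, 41.1% lower and 41.9% higher). In resistant cells 8 were lower and 1 was higher, where 37.5% of all genes were lower and 36.3% higher (73.8% called). Libraries again did not overlap for 9 genes, 8 lower and 1 higher (86.5% of all genes, 43.7% lower and 42.8% higher). These counts depended on the GC trend: with it removed, 3 were lower and 2 higher between parental lines, and 5 were lower and 2 higher between resistant lines. TNFAIP3 gave -1.41 ± 0.09 in parental cells (edgeR adjusted p = 2.30e-07) and -0.58 ± 0.09 in resistant cells (edgeR adjusted p = 9.44e-05). TRAF1 gave -2.35 ± 0.30 in parental cells (edgeR adjusted p = 4.84e-05) and -2.22 ± 0.33 in resistant cells (edgeR adjusted p = 8.91e-05). BIRC3 gave -0.58 ± 0.11 in parental cells (edgeR adjusted p = 0.000758) and -1.69 ± 0.12 in resistant cells (edgeR adjusted p = 1.93e-07). The calls of these 3 genes held under every alternative run. REL was the gene with the higher level in proficient cells, at 0.43 ± 0.08 in parental cells (edgeR adjusted p = 0.000923) and 0.89 ± 0.08 in resistant cells (edgeR adjusted p = 2.37e-06). Its values were 0.05, no longer called, and 0.25 with the GC trend removed (0.000167 to 0.571 and 3.60e-17 to 0.00304 over the alternatives).

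For 5 of the other 6 genes a call or a direction depended on the GC trend. NFKB1 gave -0.16 ± 0.07 between parental lines (edgeR adjusted p = 0.0724), a value that passed under 7 of the 17 alternatives (0.00744 to 0.303), and -0.96 ± 0.08 between resistant lines (edgeR adjusted p = 5.91e-07). RELA gave -0.65 ± 0.12 and -1.24 ± 0.12 (edgeR adjusted p = 0.000784 and 3.75e-06), or -0.16, no longer called, and -0.48 with the GC trend removed (2.13e-10 to 0.0523 and 8.43e-31 to 0.000183 over the alternatives). NFKB2 gave -0.91 ± 0.19 and -1.38 ± 0.19 (edgeR adjusted p = 0.00125 and 5.43e-05). Removal of the GC trend left -0.20 between parental and 0.11 between resistant lines, neither of them called (7.18e-11 to 0.0869 and 3.57e-20 to 0.372 over the alternatives). RELB gave -0.23 ± 0.20 and -1.65 ± 0.23 (edgeR adjusted p = 0.347 and 5.54e-05), which turned to 0.56, a call, and 0.25, not called (0.00931 to 0.879 and 6.31e-11 to 0.308). TNFAIP2 gave -0.45 ± 0.11 and 0.15 ± 0.11 (edgeR adjusted p = 0.00312 and 0.241), which became 0.26 and 1.59, both called (1.82e-06 to 0.0372 and 9.31e-14 to 0.667). NFKBIA gave -0.37 ± 0.08 and -0.30 ± 0.09 (edgeR adjusted p = 0.00264 and 0.00950), or -0.14 and -0.07, neither called, with the trend removed (3.46e-05 to 0.0557 and 0.00841 to 0.416). Between resistant lines NFKBIA was also no longer called without resistant proficient replicate 2 (-0.22), and TNFAIP2 was called without resistant deficient replicate 1 (0.30). The counts with the trend removed, given above, stand beside 64.3% of all genes called between parental lines and 73.3% between resistant lines.

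The rest of the pathway was described by 6 lists of 68 genes, of which 62 passed the filter on low counts. In proficient cells 27 of the 62 fell and 8 rose, with a median log2 fold change of -0.30. In deficient cells 23 fell and 18 rose, with a median of -0.07. Among all genes tested, as given above, 27.8% fell and 25.9% rose in proficient cells, and 27.0% fell and 28.9% rose in deficient cells. The counts of the lists were not taken with the GC trend removed. Of the genes named below, NFKBIB, TNIP1, TNIP2, TNFRSF12A and IRAK1 then lost or reversed their rise in deficient cells. TRAF3 then lost its rise in proficient cells. The rises of MAP3K14, TAB1, IL17RA, RIPK1, BCL2L1 and PLAU in deficient cells stayed called.

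Of the 5 other IkB family genes, 3 fell and 0 rose in proficient cells, and 3 fell and 1 rose in deficient cells. NFKBIB, which encodes another cytoplasmic inhibitor, averaged 8.30 ± 0.192 CPM in resistant and 12.7 ± 1.57 CPM in parental proficient cells, a fall of -0.61 ± 0.15 on the log2 scale (edgeR adjusted p = 0.00546). It rose by 0.45 ± 0.15 in the deficient line (edgeR adjusted p = 0.0205). The fall missed the threshold without parental proficient replicate 2, and the rise missed it without resistant deficient replicate 1 or either parental deficient library and became -0.21, not called, with the GC trend removed. NFKBIZ, an atypical nuclear member, fell in deficient cells (-0.48 ± 0.13, edgeR adjusted p = 0.00798), which was lost without parental deficient replicate 2.

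Among the 10 genes of the IkB kinase complex and of upstream kinases and their adaptors, 5 fell and 1 rose in proficient cells. In deficient cells 3 fell and 3 rose. CHUK, a catalytic subunit of the IkB kinase, rose in proficient cells (78.1 ± 7.46 CPM in resistant and 52.0 ± 2.45 CPM in parental cells; 0.59 ± 0.09, edgeR adjusted p = 0.000269). TAB3 and TAB2, adaptors of the upstream kinase, fell there by -0.94 ± 0.07 and -0.70 ± 0.09 (edgeR adjusted p = 1.21e-06 and 4.94e-05). MAP3K14, the kinase of the alternative pathway, rose in the deficient line (13.5 ± 1.27 CPM in resistant and 6.32 ± 0.698 CPM in parental cells; 1.10 ± 0.18, edgeR adjusted p = 0.000389). TAB1 rose there as well (1.14 ± 0.21, edgeR adjusted p = 0.00101), while the kinase gene TBK1 and TAB3 fell (-0.78 ± 0.09 and -0.41 ± 0.07, edgeR adjusted p = 4.33e-05 and 0.000700).

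A list of 9 genes held the linear ubiquitin ligase complex, deubiquitinases and further ubiquitin regulators. Of these, 4 fell and 0 rose in proficient cells, and 3 fell and 3 rose in deficient cells. RBCK1, a subunit of the linear ubiquitin ligase, fell in the proficient line (23.9 ± 2.39 CPM in resistant and 77.3 ± 0.602 CPM in parental cells; -1.69 ± 0.12, edgeR adjusted p = 5.13e-07), as did the ubiquitin ligase gene ITCH (-0.76 ± 0.08, edgeR adjusted p = 1.01e-05). In deficient cells TNIP1 and TNIP2, partners of the TNFAIP3 protein, rose by 0.69 ± 0.10 and 0.92 ± 0.15 (edgeR adjusted p = 0.000198 and 0.000434), or 0.14 and 0.12 and not called with the GC trend removed. OTULIN, which cuts linear chains, and TAX1BP1 fell there (-0.47 ± 0.08 and -0.40 ± 0.08, edgeR adjusted p = 0.000530 and 0.00103).

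Of 12 receptor genes, 11 were tested. In proficient cells 2 fell and 2 rose, and in deficient cells 3 fell and 2 rose. TLR4 and TLR3, receptors of microbial lipid and double-stranded RNA, rose in proficient cells (0.60 ± 0.11 and 0.94 ± 0.22, edgeR adjusted p = 0.00106 and 0.00437), the rise of TLR3 lost without parental proficient replicate 2. The interleukin-1 receptor genes IL1RAP and IL1R1 fell there (-0.58 ± 0.09 and -1.08 ± 0.20, edgeR adjusted p = 0.000214 and 0.000836). IL17RA, an interleukin-17 receptor gene, rose in the deficient line (0.85 ± 0.13, edgeR adjusted p = 0.000292), and IL1RAP and the tumour necrosis factor receptor gene TNFRSF1A fell (-0.48 ± 0.09 and -0.41 ± 0.11, edgeR adjusted p = 0.00109 and 0.00711), TNFRSF1A not without parental deficient replicate 1. TNFRSF12A rose there by 0.63 ± 0.16 (edgeR adjusted p = 0.00675), missed the threshold without parental deficient replicate 2, and turned to a fall of -0.38 with the GC trend removed.

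In the list of 12 receptor adaptor genes, which also holds kinases, 6 fell and 3 rose in proficient cells. In deficient cells 3 fell and 4 rose. RIPK1, a kinase of receptor complexes, rose in both, by 0.42 ± 0.11 in proficient cells and 0.52 ± 0.10 in deficient cells (edgeR adjusted p = 0.00544 and 0.00141), the rise in proficient cells lost without parental proficient replicate 2. IRAK1, a kinase downstream of interleukin-1 and Toll-like receptors, fell by -0.90 ± 0.16 in the proficient line (edgeR adjusted p = 0.000515). It rose by 0.73 ± 0.15 in the deficient line (edgeR adjusted p = 0.00157), a rise turning to a fall of -0.18 with the GC trend removed. IRAK2 fell in the proficient line (-1.32 ± 0.16, edgeR adjusted p = 3.10e-05), and IRAK4 and TRAF5 fell in deficient cells (-1.19 ± 0.12 and -0.73 ± 0.11, edgeR adjusted p = 1.72e-05 and 0.000248). TRAF3, a brake on the alternative pathway, rose in proficient cells (0.24 ± 0.08, edgeR adjusted p = 0.0278), which was lost without either parental proficient library and with the GC trend removed (0.12).

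Of 20 other target genes, 15 were tested. In proficient cells 7 fell and 2 rose, and in deficient cells 8 fell and 5 rose. LCN2, which encodes the iron-binding protein lipocalin-2, fell in both resistant lines. It averaged 11.9 ± 0.821 CPM in resistant and 80.3 ± 0.707 CPM in parental proficient cells (-2.75 ± 0.10, edgeR adjusted p = 4.27e-09). In deficient cells it averaged 15.9 ± 1.75 CPM in resistant and 129.8 ± 1.39 CPM in parental libraries (-3.03 ± 0.09, edgeR adjusted p = 4.35e-09). PLAU, the urokinase gene, rose in both (0.99 ± 0.07 in proficient cells and 0.33 ± 0.07 in deficient cells, edgeR adjusted p = 3.73e-07 and 0.00126). ICAM1, a cell adhesion molecule, fell in deficient cells (88.6 ± 6.30 CPM in resistant and 221 ± 6.88 CPM in parental cells; -1.32 ± 0.08, edgeR adjusted p = 4.66e-07). Its rise in proficient cells (0.25 ± 0.08, edgeR adjusted p = 0.0204) was lost without resistant proficient replicate 1 and without either parental proficient library. IL32, which encodes an inflammatory mediator, was reduced in the resistant proficient line (1.97 ± 0.387 CPM in resistant and 24.6 ± 1.88 CPM in parental cells; -3.65 ± 0.17, edgeR adjusted p = 3.29e-08). The survival gene BCL2L1 rose in the deficient line (0.71 ± 0.08, edgeR adjusted p = 4.00e-05).

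**Figure D4:**
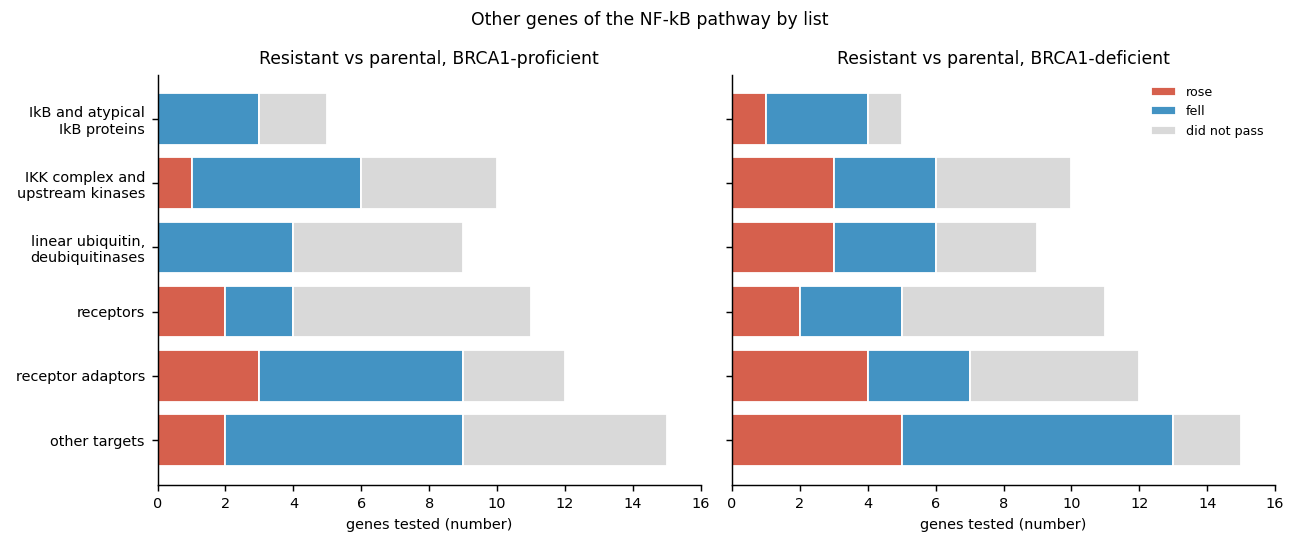
Number of genes tested (x axis) in each of 6 lists of other NF-kB pathway genes (y axis) that rose, fell or did not pass an edgeR adjusted p of 0.05 in resistant over parental cells, for BRCA1-proficient cells on the left and BRCA1-deficient cells on the right. No gene of the IkB or linear ubiquitin lists rose in proficient cells. The GC trend was not removed.

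The 3 members with the widest range of group mean log2 CPM were TRAF1 (2.85), RELB (1.85) and BIRC3 (1.68). Likeness was measured as the root mean square difference between log2 CPM profiles over the 8 libraries, each centred on its own mean, among 11032 genes of at least 5 CPM on average. Closest to TRAF1 were UBA7 (0.202) and PLAT (0.232), closest to RELB were THSD4 (0.154) and NXT1 (0.174), and closest to BIRC3 were PVT1 (0.135) and ZNF124 (0.143). UBA7, the activating enzyme gene of ISG15 conjugation, had 1.33 CPM in resistant proficient, 2.13 in parental proficient, 7.13 in resistant deficient and 10.4 in parental deficient cells. THSD4 stood at 11.0, 31.7, 35.2 and 43.6 CPM in the same order of groups, and PVT1 at 15.5, 31.3, 56.4 and 42.8 CPM. The libraries that form these profiles share depth and GC trend.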

How the data were processed

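The deposited table holds raw counts of reads per gene symbol, whole numbers without normalisation, for 32803 symbols in 8 libraries. Per the submitters' processing notes, the build was GRCh37 and the tools included DESeq2 1.24.0, Subread 2.0.1 with featureCounts, and Trimmomatic 0.39. What each tool did, which annotation was used, and how strand and multi-mapping reads were handled is not given in the sources. Reads of overlapping or antisense genes therefore cannot be told apart. Groups came from the sample titles. Nothing says that replicates were separate cultures, so p-values reflect only how far these libraries spread, which may be technical. No replicate pair was alike within sampling noise (chi-square per degree of freedom 4.26 to 23.4). No per-sample column was left unused.

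All 8 libraries entered 1 fit of edgeR 4.0.16 (R 4.3.3, quasi-likelihood test, TMM factors, filterByExpr, 4 residual degrees of freedom), with Benjamini-Hochberg adjustment over the 16221 genes tested in each of 5 comparisons. The steps were tested on simulated data. The SE is the size of the log2 fold change divided by the square root of F. GC content came from the longest GENCODE v29 transcript and covered 94.8% of the genes tested, and the trend (natural spline, 5 degrees of freedom, log2 CPM with a prior count of 2) was removed as an offset. The other alternatives were library totals alone, RLE factors, no filter, a filter at 1 CPM in 2 or more libraries, DESeq2 1.42.0, the 2 groups alone, a replicate block with and without the GC correction, and each library left out. Where a group was left with 1 library, that library was assumed to vary like the others.

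The members and gene lists were chosen with earlier results of these data known. All members are named. Of each pathway list and resistance comparison, up to 2 genes per direction with the smallest adjusted p were named, provided that the higher group averaged 5 CPM or more and the groups did not overlap.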

Additional observations from a re-analysis of the deposited data

Results flagged for a closer look

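The effect of resistance differed between BRCA1-proficient and BRCA1-deficient cells for 7 of the 10 genes, by a test of the difference itself over all genes (edgeR, adjusted p under 0.05, which 46.7% of all genes passed). As proficient minus deficient log2 effects these were NFKB1 (-0.80), RELA (-0.59), RELB (-1.42) and BIRC3 (-1.10) on the lower side and REL (0.46), TNFAIP3 (0.83) and TNFAIP2 (0.60) on the higher side. The calls of RELB and REL were lost with the GC trend removed, and that of RELA with single libraries left out, as given above.

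The same test passed for further pathway genes named above. Those genes were named by resistance comparisons from which this difference is built, which can favour passing. Of all 62 genes tested in the lists, 24 passed on the lower side (38.7%) and 15 on the higher side (24.2%). Among all genes 25.3% passed on the lower and 21.4% on the higher side. Only the genes already named above are listed next, not all that passed. On the lower side these were NFKBIB (-1.07), MAP3K14 (-1.55), TAB1 (-1.39), TAB3 (-0.53), TAB2 (-0.68), TNIP1 (-0.88), TNIP2 (-1.15), RBCK1 (-1.16), ITCH (-0.62), IL17RA (-0.61), TNFRSF12A (-0.94), IRAK1 (-1.63), IRAK2 (-1.35), BCL2L1 (-0.53) and IL32 (-3.34). On the higher side these were NFKBIZ (0.50), TBK1 (0.52), CHUK (0.71), TNFRSF1A (0.56), TLR4 (0.81), TLR3 (1.24), IRAK4 (0.63), TRAF5 (0.45), TRAF3 (0.31), PLAU (0.65) and ICAM1 (1.57). With the GC trend removed, the calls of NFKBIZ, RBCK1, TNFRSF12A and TRAF5 were lost, and calls were gained by IL1RAP (-0.34), IL1R1 (-0.65), LCN2 (0.53) and OTULIN (-0.20). Those of NFKBIZ, IL17RA, TLR3, TRAF5 and TRAF3 were lost with single libraries left out. The NFKBIZ call was also lost with the replicate block, with DESeq2 and with no filter, in all under 11 of 16 alternatives (edgeR or DESeq2 adjusted p from 0.0184 to 0.117), and the TRAF3 call was also lost with DESeq2 (0.0619, with 0.000881 to 0.177 over the alternatives). IL32 and ICAM1 lay farthest from 0 in each direction. ICAM1 averaged 112.8 ± 11.0 CPM in resistant and 94.6 ± 0.946 CPM in parental proficient cells, where its rise depended on single libraries.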

How the results depend on the processing

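For the 10 genes, 774 of 840 values under the alternatives kept their direction and their side of the threshold, 34 lost a call, 18 gained one and 14 changed sign, 12 of them with the GC trend removed, with or without a replicate block. The other 2 were the TRAF1 difference, which ran from -0.31 to 0.54 with each library left out. Between parental lines 5 of 10 genes were called there, against 8 without the correction, and resistant against parental deficient cells gave 3 to 6 called genes with each library left out, against 6. Counts by direction moved further. With the GC trend removed, 3 genes were lower between parental lines, against 7, and 5 between resistant lines, against 8 (4 and 5 with a replicate block too), and 2 were higher, against 1, in each. Removal of the trend moved the resistance counts the other way. In deficient cells 7 then fell and 2 rose, against 5 and 1 (7 and 1 with a replicate block too). In proficient cells 7 then fell and 2 rose, against 6 and 2. In resistant deficient cells, 3 fell, against 5, with DESeq2, without resistant deficient replicate 2 and without parental deficient replicate 2, and 0 rose, against 1, without resistant deficient replicate 1 or parental deficient replicate 2. With the GC trend removed, the reversed values were 0.16 for REL, -0.21 for NFKBIB, -0.38 for TNFRSF12A and -0.18 for IRAK1 in resistant against parental deficient cells, 0.56 for RELB and 0.26 for TNFAIP2 between parental lines, 0.11 for NFKB2 and 0.25 for RELB between resistant lines, and -0.20 for OTULIN, 0.042 for TNFRSF12A, 0.31 for NFKB2 and -0.047 for TAX1BP1 in the difference between resistance effects. With the GC trend removed and a replicate block together they were 0.16 for REL, -0.21 for NFKBIB, -0.38 for TNFRSF12A, -0.18 for IRAK1, 0.55 for RELB and 0.26 for TNFAIP2 between parental lines, 0.11 for NFKB2 and 0.27 for RELB between resistant lines, and -0.20 for OTULIN, 0.051 for TNFRSF12A, 0.32 for NFKB2 and -0.048 for TAX1BP1 in the difference. With each library left out, differences near 0 also changed sign for RIPK1 (-0.20 to 0.094), OTULIN (-0.022 to 0.18) and IL1RAP (-0.13 to 0.070). The cause was not tested. The replicate block alone gave 6, 8, 8, 9 and 7 called genes of 10 in resistant against parental deficient, resistant against parental proficient, proficient against deficient parental, proficient against deficient resistant cells and the difference, as without it, and the difference of NFKBIZ was no longer called (edgeR adjusted p = 0.0513, 0.0184 to 0.117 over the alternatives). Deviations of same-numbered libraries correlated across genes at -0.13 to 0.21 between groups, highest between the resistant groups. These values do not settle whether replicate numbers pair the samples. With 2 libraries a group, TRAF1, at 10 to 27 counts in proficient libraries, is limited by depth.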

Other observations

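Among the 10 genes themselves, profiles over the 8 libraries were compared without removal of the GC trend. The closest pair was NFKBIA and TNFAIP2, with a root mean square difference of 0.180 on the log2 scale. Their transcripts differ in GC content (53.1% and 62.0%), and the likeness was not measured again with the GC trend removed. With the trend removed, proficient against deficient resistant cells gave -0.07 for NFKBIA and 1.59 for TNFAIP2, against -0.30 and 0.15 before. The 2 genes thus lay further apart in that comparison. NFKB1 lay closest to NFKBIA (0.265) and RELB closest to NFKB1 (0.287). REL and TRAF1 lay farthest from any other member, at 0.601 from TNFAIP2 and 0.620 from NFKB2.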
